A study of Mus musculus with 6 samples.

Results

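Lyz1, Ptprn2, Phgr1, Cd177 and Lyz2 were followed through the epithelium of lung organoids grown with normal or fibrogenic fibroblasts (FBs). They are 5 of the 32285 genes counted in the organoid libraries, and all 5 were found by symbol. The first 4 were chosen from the lowest ratios of summed level in epithelium with fibrogenic FBs to that with normal FBs. Lyz2 was added as the paralog of Lyz1. The values of that contrast are therefore given as a description. The members' rows were summed over barcodes gated as epithelium by marker genes, with at least 10000 UMIs per barcode (a UMI is a counted RNA molecule), which left 1627 of 5441 barcodes with normal FBs and 1255 of 8894 with fibrogenic FBs.

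Single cells were sequenced in droplets to count RNA in 6 mouse libraries with 1 per condition. The question was how Pdgfra+ FBs differ between normal and fibrotic lung and how they support alveolar type 2 epithelial cells (AEC2s). For each of the 2 organoid libraries, tomato+ AEC2s from SpcCreER donors given tamoxifen at 1 mg/kg in 2 injections were combined in Matrigel with GFP+ PDGFRa+ FBs from reporter mice (PDGFRa-EGF in the labels, PDGFRa-EGFP for the other libraries), and grown for 2 weeks. The labels give the mix as 10:1 in the order AEC2s to FBs, whereas the methods of the paper give more FBs than AEC2s for its organoid cultures, so the ratio in these libraries is uncertain. The FB donors had received PBS (normal) or 2 U/kg bleomycin (fibrogenic) by oropharyngeal aspiration and their lungs were taken at day 14, and each cell type was pooled from 3 mice. The paper gives the AEC2 donors as SpcCreER mice crossed with a Rosa tdTomato reporter line. Cre in these donors was driven by the promoter of Spc (Sftpc), so the label covered cells that used that promoter. Only the FB donors differed in treatment. The other 4 libraries held GFP+ lung cells of PDGFRa-EGFP mice without culture, after 1 dose of PBS or bleomycin (day 14) or 3 weekly doses of either (2 weeks after the last). The weekly bleomycin doses were 1, 1 and 0.5 U/kg. For the single bleomycin dose the labels give 2 U/kg in the protocol and 4 U/kg in the treatment field, so it is uncertain. With 1 library per condition no difference between conditions has a replicate check, and the intervals below cover counting error only, since pooled mice, wells and library preparation add spread that was not measured.

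AEC2s line the alveolus, make surfactant, secrete lysozyme and give rise to the flat type 1 cells (AEC1s) across which gas is exchanged. Between these states lies a transitional state marked by Krt19, Cldn4 and Sfn (PATS). Mice carry a duplicated lysozyme gene. Lyz1 is best known from the Paneth cells of the small intestine, and Lyz2 from macrophages, neutrophils and AEC2s; both encode the enzyme that cuts bacterial cell wall. Ptprn2 (phogrin) encodes a membrane protein of dense-core secretory vesicles, Cd177 a surface glycoprotein of neutrophils, and Phgr1 a small protein rich in proline, histidine and glycine that is known from gut epithelium.

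Lyz1 and Lyz2 lie side by side on the minus strand of chromosome 10 (GRCm38, GENCODE M21), Lyz2 (ENSMUSG00000069516) at chr10:117277331-117282321 and Lyz1 (ENSMUSG00000069515) at chr10:117287797-117292868, with 5475 bases between them. Each has 4 exons and 444 coding bases, which differ at 22 positions (95.05% identity). Of the 1204 windows of 60 bases in the Lyz1 transcript, 127 (10.5%) occur without a mismatch in the Lyz2 transcript, and of the 441 such windows in its last 500 bases, 52 (11.8%) do. A read lying wholly inside such a shared stretch cannot be told apart, while a longer read may reach a base that differs. How many UMIs of either gene are ambiguous in this way was not measured. Stretches upstream of the pair are shown because these neighbours share most of the letters there, while Lyz1 was among the 4 chosen genes and Lyz2 was not. They run from base 130 before each RefSeq start (GRCm38.p6) and stop short of the last 50, of which GENCODE M21 counts 49 as part of the Lyz2 transcript and 0 as part of Lyz1. They lie on the minus strand at chr10:117292919-117292998 for Lyz1 and chr10:117282323-117282402 for Lyz2 and are written 5′ to 3′, with capitals at the positions where they differ.
Lyz1: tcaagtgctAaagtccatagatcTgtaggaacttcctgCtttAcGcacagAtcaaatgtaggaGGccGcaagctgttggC
Lyz2: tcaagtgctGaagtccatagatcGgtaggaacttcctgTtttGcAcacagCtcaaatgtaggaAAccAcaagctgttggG
The stretches differ at 10 of 80 positions (87.5% identity). Short motifs were searched on both strands in the 300 bases around each member's RefSeq start (250 before, 50 after). CAAGTG, the core of NKX-type sites, stands in the windows of Lyz1, Lyz2 and Ptprn2 and in 13.6% of all 32851 mouse promoter windows. GGAAGT, an ETS-type core, stands in those of Lyz1, Lyz2, Ptprn2 and Cd177 and in 23.8% of all, and in Ptprn2 it shares a base with the CAAGTG match. CCAAT was found in Lyz1 (37.4% of all windows) and TATAAA in Cd177 (13.6%), while TGACTCA (5.20% of all) was found in none of the 5 windows. A match of letters is a description of the window and not a bound site.

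Ptprn2 (ENSMUSG00000056553) spans 791130 bases on chromosome 12 (chr12:116485720-117276849, plus strand), where GENCODE M21 places 6 other genes that overlap it, 4 of them on the opposite strand. Phgr1 (ENSMUSG00000046804, chr2:118772769-118778165, plus strand) and Cd177 (ENSMUSG00000052212, chr7:24743983-24760311, minus strand) overlap no other annotated gene, nor do Lyz1 and Lyz2.

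The gated barcodes were epithelial by their markers. Sftpc, the surfactant gene that defines AEC2s, held 68889 and 61713 CPM (UMIs per 1000000 UMIs of the same barcodes) with normal and fibrogenic FBs. Of the genes that mark other cells, the 8 FB markers together held 61.3 and 122 CPM, the 6 immune markers 1.67 and 2.12 CPM and the 6 macrophage markers 1.64 and 3.00 CPM, with Marco at 0 UMIs in both. Low sums of the FB and immune lists were built in, because the gate required 5 times as many epithelial marker UMIs. The macrophage list was not part of the gate. Median UMIs per epithelial barcode were 42994 and 42320, median mitochondrial shares 4.83% and 5.18%, and a Y-linked UMI was present in 98.6% and 97.7% of barcodes. The libraries shared 13 barcode sequences, of which 1 was gated as epithelium in both. Among all barcodes, 15.9% and 33.5% held under 2000 UMIs, which the minimum of 10000 leaves out.

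Lyz1 had the lowest ratio of the 14686 genes with at least 50 UMIs over both libraries. With normal FBs it gave 1590 UMIs, or 20.4 CPM (95% Poisson interval 19.4 to 21.4), and with fibrogenic FBs 175 UMIs, or 3.03 CPM (2.60 to 3.52), which is 6.72 times lower. On the log2 scale with 1 CPM added, the ratio of fibrogenic to normal was -2.41. It was positive in 8.11% of barcodes (6.83% to 9.55%, Clopper-Pearson) with normal FBs and 5.66% (4.44% to 7.08%) with fibrogenic FBs, so the shares lay closer together than the levels.

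Lyz2 did not share that difference. It gave 428728 UMIs (5496 CPM) with normal and 340421 UMIs (5903 CPM) with fibrogenic FBs, a log2 ratio of 0.10, or -0.11 when barcodes had to hold 20 rather than 5 times as many epithelial as other marker UMIs. Its positive shares were 92.5% and 91.6%. The median barcode held 74 Lyz2 UMIs with normal and 40 with fibrogenic FBs, so the typical barcode and the sum lay in opposite order.

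Ptprn2, the vesicle membrane gene, was at 37.4 CPM (36.0 to 38.7; 2914 UMIs) with normal FBs and at 10.7 CPM (9.87 to 11.6; 617 UMIs) with fibrogenic FBs, a log2 ratio of -1.71. Its positive share was 39.0% (36.6% to 41.4%) against 20.2% (18.0% to 22.6%). Phgr1 was at 97.0 CPM (94.8 to 99.2; 7564 UMIs) against 31.6 CPM (30.2 to 33.1; 1823 UMIs), a log2 ratio of -1.59, and its positive share was 56.3% against 29.6%. Cd177 was at 64.4 CPM (62.7 to 66.2; 5027 UMIs) against 24.0 CPM (22.8 to 25.3; 1385 UMIs), a log2 ratio of -1.39, and its positive share was 33.9% against 14.7%. For these 3 genes the share of positive barcodes was 1.93, 1.90 and 2.30 times as high with normal FBs, while the level was 3.49, 3.07 and 2.68 times as high.

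Of these 14686 genes, 19 (0.129%) had a log2 ratio of -1 or lower and 49 (0.334%) of 1 or higher, and the median gene was at 0.05. Of the 5 members, all of which reached 50 UMIs, 4 were at -1 or lower, which is how they were chosen. Lyz1, Ptprn2 and Phgr1 held ranks 1, 2 and 3 from the lowest ratio and Cd177 rank 5, while Lyz2 held rank 9516. Rank 4 was held by Dlk1, which was not among the chosen genes (135 UMIs with normal FBs and 0 with fibrogenic FBs, where 0 allows up to 0.0520 CPM). Just outside the choice stood Meg3 at rank 6 (54.6 and 21.8 CPM, log2 ratio -1.28). Dlk1 and Meg3 lie in the same imprinted cluster.

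**Figure D1:**
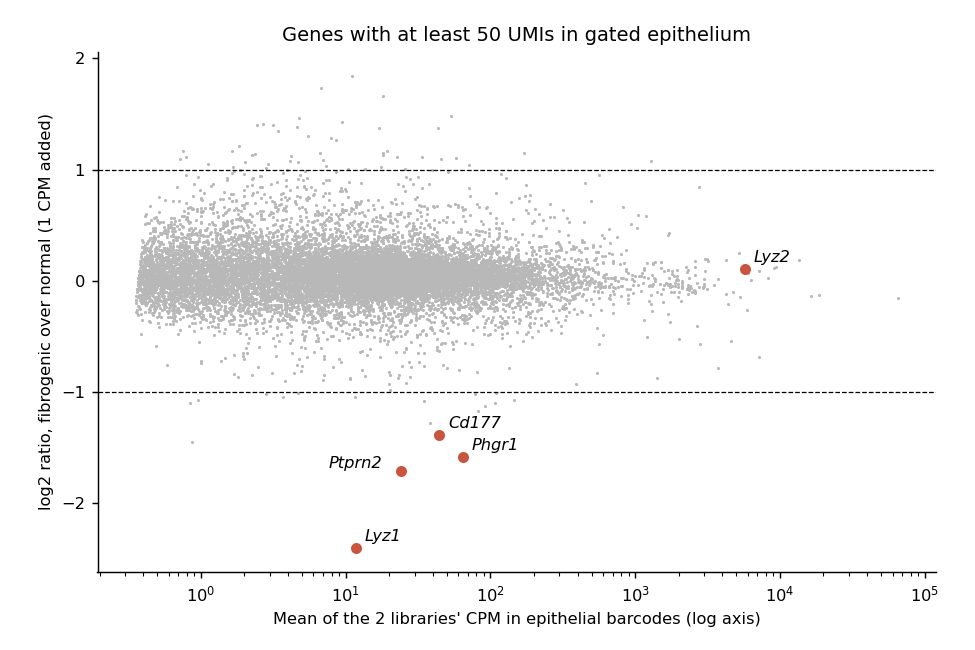
Log2 ratio of fibrogenic to normal (1 CPM added) against the mean CPM of the 2 libraries (log axis) for the 14686 genes with at least 50 UMIs in gated epithelium, 1 point per gene, with the 5 members in red and dashed lines at -1 and 1. Lyz1 at -2.41, Ptprn2 at -1.71, Phgr1 at -1.59 and Cd177 at -1.39 lie under the cloud of genes of similar level, and Lyz2 at 0.10 lies within it.

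FB barcodes of the same libraries (1903 and 2032) are set beside the epithelium as another cell type exposed to the same free RNA. Ptprn2 was also counted in lung FBs, at 0.360 and 0.097 CPM (2 and 1 UMIs) after a single dose of PBS and bleomycin (the FB donors also had 1 dose), and at 8.43 and 4.48 CPM after repetitive PBS and bleomycin, so for this gene FB barcodes may not be free of its own RNA. The single-dose libraries were counted over 30830 and 30828 genes, and the repetitive-dose ones over 32285, as the organoids were. Dose number and gene set thus differed together between the lung libraries, and this difference in Ptprn2 was not tested. Positive shares in the organoid FB barcodes, at median depths of 53553 and 70878 UMIs, were 1.10% and 0.54% for Lyz1, 4.89% and 3.15% for Ptprn2, 5.20% and 1.72% for Phgr1, 3.05% and 1.13% for Cd177, and 85.7% and 88.6% for Lyz2. The positive shares of Lyz1, Ptprn2, Phgr1 and Cd177 in epithelium were higher than these in both libraries. In FB barcodes Phgr1 (3.35 and 0.469 CPM), Cd177 (3.31 and 0.385 CPM) and Ptprn2 (1.47 and 0.571 CPM) were ordered between the libraries as in epithelium. Without the highest barcode of each library the log2 ratios were -1.47 for Phgr1 and -1.44 for Cd177. The summed AEC2 markers in FB barcodes were also lower with fibrogenic FBs, at 3219 and 1879 CPM. Their medians over barcodes were 443 and 352 CPM, and their part in the members' levels was not tested. Of the 5 members, 2 (Phgr1 and Cd177) were at a log2 ratio of -1 or lower in FB barcodes, where 0.8% of 16128 genes were. Lyz1 in FB barcodes was at 0.189 and 0.430 CPM, where 56 of the 67 fibrogenic UMIs lay in 1 barcode, and at 0.172 and 0.0707 CPM (-0.13) without the highest barcode of each library. Lyz2 was at 203.0 and 164.2 CPM (-0.30), the opposite order to epithelium. The part of free RNA in the epithelial values was not tested further.

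Thinning every epithelial barcode to 10000 UMIs put the libraries at equal depth. Positive shares were then 2.89% and 1.59% for Lyz1, 19.6% and 6.61% for Ptprn2, 32.5% and 12.9% for Phgr1, 21.3% and 8.13% for Cd177, and 77.3% and 72.6% for Lyz2. The order of the libraries was the same as without thinning for all 5 genes, although the thinned intervals for Lyz1 (2.13% to 3.82% and 0.98% to 2.45%) overlapped.

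Barcodes were divided by their summed marker scores into ranges named AEC2-high, AEC1-high and PATS-high, with an intermediate range where no score stood out, and barcodes with at least 4 cycling markers kept apart. These are ranges of a score and not cell types: 4.26% of barcodes outside cycling with normal FBs and 7.67% with fibrogenic FBs lay within 0.1 of a limit. AEC2-high barcodes made up 58.3% (949) of epithelium with normal FBs and 48.4% (608) with fibrogenic FBs, AEC1-high 16.3% and 18.8%, PATS-high 11.9% and 19.2%, intermediate 2.77% and 7.09%, and cycling 10.6% and 6.45%.

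Of the 4 ranges outside cycling, the AEC2-high range held the highest level of each member in both libraries. In AEC2-high barcodes with normal and fibrogenic FBs, Ptprn2 was at 51.9 and 16.8 CPM (log2 ratio -1.57), Phgr1 at 125.5 and 40.1 CPM (-1.62), Cd177 at 89.8 and 37.1 CPM (-1.25), and Lyz1 at 23.0 and 5.36 CPM (-1.91). Within this range 4 of 5 members were at -1 or lower, where 0.0915% of 13110 genes were. All the ranges are parts of the epithelium by which the 4 were chosen, so such counts by range are a description. In AEC2-high barcodes Lyz2 was at 7868 and 9969 CPM, a log2 ratio of 0.34. The summed AEC2 markers in this range were at 120971 and 116525 CPM and the FB markers at 55.3 and 101.7 CPM, and their part in these differences was not tested. With the fibrogenic ranges weighted as in the normal library, the log2 ratios were -2.21 for Lyz1, -1.47 for Ptprn2, -1.36 for Phgr1, -1.11 for Cd177 and 0.32 for Lyz2.

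Outside the AEC2-high range the genes parted. Phgr1 kept a level in AEC1-high barcodes, at 57.8 CPM (53.2 to 62.7) with normal and 19.4 CPM (16.6 to 22.6) with fibrogenic FBs (-1.53), and was positive in 49.2% and 28.4% of them. Ptprn2 there was at 4.58 and 1.96 CPM (-0.91, or -1.09 without the highest barcode of each library), and Cd177 at 3.49 and 1.04 CPM from 44 UMIs in all, under the minimum of 50. Of the 3 members that reached 50 UMIs in AEC1-high barcodes, 1 was at -1 or lower, against 0.416% of genes.

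In PATS-high barcodes Cd177 was at 7.71 and 0.924 CPM (-2.18), Ptprn2 at 4.79 and 1.43 CPM (-1.25), and Phgr1 at 11.1 and 8.31 CPM (-0.38). Cd177 rested on 74 and 11 UMIs and Ptprn2 on 46 and 17. Thinned to equal depth, their positive shares with fibrogenic FBs were 1.24% and 0.83%, against 0.25% and 0.79% in FB barcodes. For Phgr1 these shares were 3.73% and 0.44%. Of the 99 Phgr1 UMIs with fibrogenic FBs, 61 lay in 1 barcode, and without the highest barcode of each library Phgr1 was at 9.05 and 3.20 CPM (-1.26). The summed AEC2 markers in PATS-high barcodes were also lower with fibrogenic FBs, at 15054 and 7719 CPM, and their part in the members' levels was not tested. Of the 4 members with 50 UMIs there, 2 were at -1 or lower with all barcodes, against 0.555% of genes. Lyz2 in this range was at 633 CPM with normal and 477 CPM with fibrogenic FBs (-0.41), the opposite order to that in AEC2-high barcodes, and this difference between ranges was not tested. Of its 5683 UMIs with fibrogenic FBs, 2153 lay in 1 barcode. Without the highest barcode of each library Lyz2 was at 555 and 299 CPM (-0.89). Lyz1 gave 1 and 2 UMIs in PATS-high barcodes and 5 and 1 in AEC1-high ones, so no difference was detectable at this depth. In the intermediate range, with 45 and 89 barcodes, Phgr1 was at 32.9 and 10.3 CPM (-1.59), and of the 2 members that reached 50 UMIs (Phgr1 and Lyz2) 1 was at -1 or lower, against 1.27% of genes. Lyz2 was at 1923 and 3662 CPM there (0.93), and the summed AEC2 markers at 66933 and 92759 CPM, so this range does not compare like with like. Under that minimum, Cd177 was at 7.39 and 11.9 CPM, but 34 of its 37 UMIs with fibrogenic FBs lay in 1 barcode, and without the highest barcode of each library it was at 3.53 and 0.989 CPM. Ptprn2 was at 17.5 and 2.89 CPM and Lyz1 at 6.04 and 0.963 CPM.

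In cycling barcodes (173 and 81) Phgr1 was at 96.8 and 70.6 CPM (-0.45), Cd177 at 71.5 and 50.0 CPM (-0.51) and Lyz2 at 4607 and 5340 CPM (0.21). Ptprn2 in them was at 37.5 and 17.3 CPM (-1.07), with positive shares of 48.6% and 53.1% at median depths of 57329 and 63107 UMIs. Thinned to equal depth, these Ptprn2 shares were 20.2% (14.5% to 27.0%) and 14.8% (7.90% to 24.4%), the opposite order. The intervals overlapped with and without thinning. Lyz1 was at 47.6 and 2.85 CPM (-3.66), but 496 of its 518 UMIs with normal FBs came from 1 barcode, and without the highest barcode of each library it was at 2.05 and 2.31 CPM (0.12). Positive Lyz1 barcodes were 11 in each library, which is 6.36% with normal and 13.6% with fibrogenic FBs. With fibrogenic FBs the levels of Phgr1 and Cd177 in cycling barcodes were above those in AEC2-high ones. Ptprn2 was nearly level at 17.3 against 16.8 CPM, and at 15.6 against 16.4 CPM without the highest barcode of each range. Lyz1 with normal FBs was above its AEC2-high level with all barcodes (47.6 against 23.0 CPM), but below without the highest barcode of each range (2.05 against 16.7 CPM). Of the 5 members, 2 (Lyz1 and Ptprn2) were at -1 or lower in the cycling range with all its barcodes, against 0.244% of genes.

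**Figure D2:**
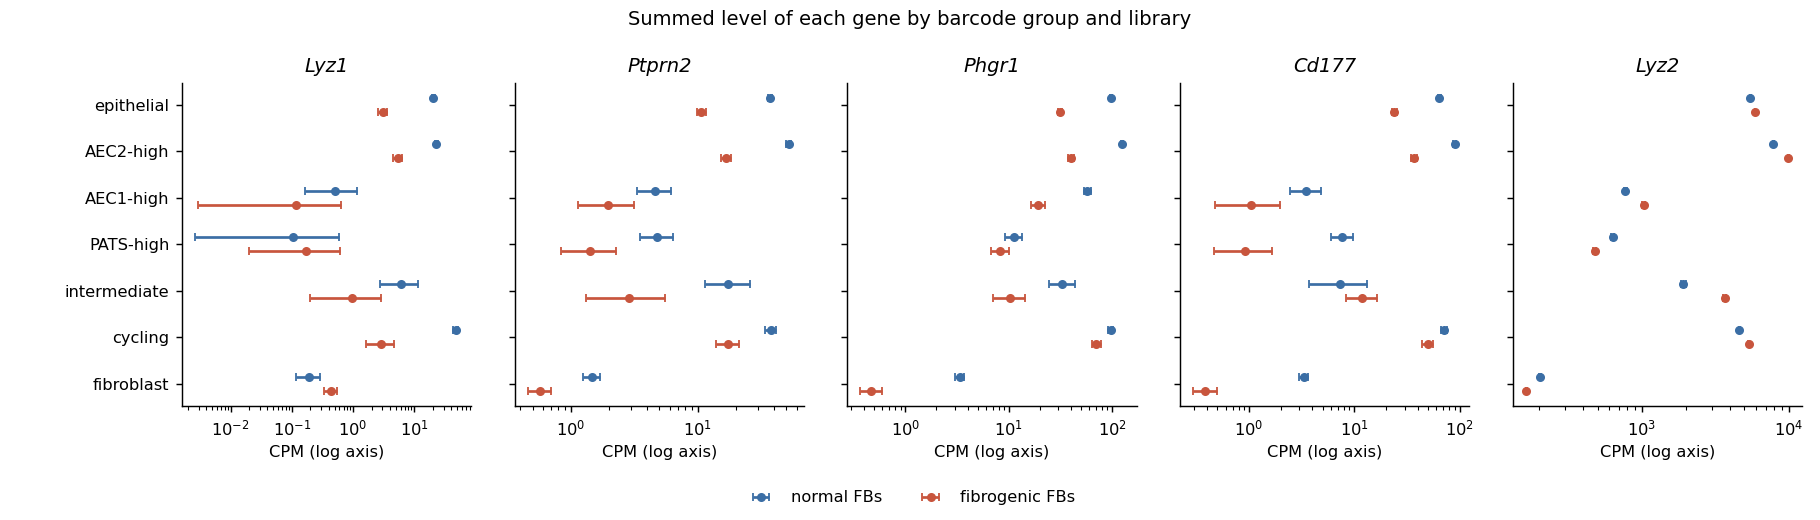
Summed CPM (log axis) of each member in all gated epithelial barcodes, in the 5 ranges and in FB barcodes, with normal FBs in blue and fibrogenic FBs in red; bars are 95% Poisson intervals, which cover counting error only, and many are smaller than the points. Ptprn2, Phgr1 and Cd177 lie lower with fibrogenic FBs in AEC2-high barcodes (51.9 to 16.8, 125.5 to 40.1 and 89.8 to 37.1 CPM), Phgr1 and Cd177 lie closer together in cycling barcodes, and Lyz2 lies at 5496 and 5903 CPM in all epithelium.

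Along a finer order the same was seen. Barcodes outside cycling were ranked in each library by AEC2 score minus AEC1 score and cut into 5 equal bins. In bin 5, the highest, Sftpc stood at 96484 and 92538 CPM, whereas Cd177 stood at 120.5 and 43.0 CPM, Ptprn2 at 45.0 and 16.1 CPM and Phgr1 at 110.3 and 41.2 CPM. In bin 3, Sftpc stood at 78577 and 80324 CPM, Cd177 at 61.4 and 18.9 CPM, Ptprn2 at 55.3 and 13.1 CPM and Phgr1 at 139.0 and 43.2 CPM. Ptprn2 and Cd177 were near 0 in bin 1 of both libraries (at most 1.16 CPM), while Phgr1 stood there at 39.1 and 14.6 CPM. In bin 2 the libraries also differed in Sftpc (48960 and 23759 CPM) and in Krt19 (1101 and 2030 CPM), so that bin does not compare like with like.

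**Figure D3:**
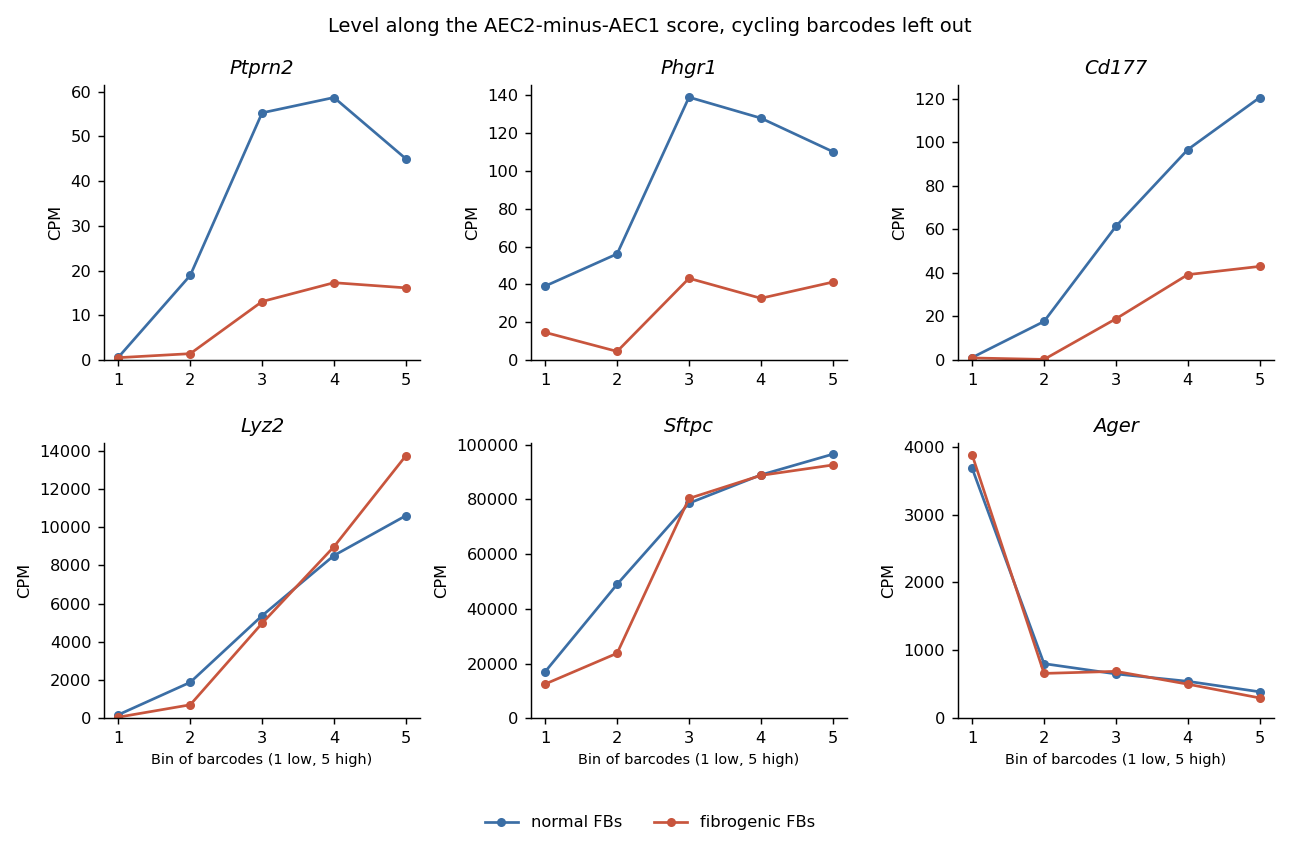
CPM of 4 members and of Sftpc (AEC2) and Ager (AEC1) in 5 bins of the barcodes outside cycling, ordered by AEC2 score minus AEC1 score, with 290 or 291 barcodes per bin with normal FBs (blue) and 234 or 235 with fibrogenic FBs (red). Ptprn2, Phgr1 and Cd177 lie lower with fibrogenic FBs in bins 3 to 5, and in bin 5 Sftpc stands at 96484 and 92538 CPM, Ager at 389.4 and 299.2 CPM and Lyz2 at 10597 and 13730 CPM. Lyz2 also lies higher with fibrogenic FBs in bin 4, but lower in bin 1 (184 and 57.7 CPM), bin 2 (1880 and 704 CPM) and bin 3 (5366 and 4970 CPM).

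Lyz1 UMIs were held by few barcodes. With normal FBs, 11 of 1627 barcodes (0.676%) held 10 or more Lyz1 UMIs, and the 5 highest held 496, 289, 226, 103 and 87, together 75.5% of the total. With fibrogenic FBs, 2 of 1255 (0.159%) did, with 63 and 21 UMIs. Without the 5 highest barcodes of each library the level was 5.01 CPM against 1.34 CPM (log2 ratio -1.36). In the barcodes with under 10 Lyz1 UMIs it was 2.62 against 1.58 CPM (-0.49), so most of the Lyz1 difference lay in the few high barcodes.

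The 11 high barcodes with normal FBs were epithelial by their own counts. They held 2396 to 13759 Sftpc UMIs and 0 Ptprc UMIs (the pan-leukocyte gene), 10 of them were AEC2-high and 1 cycling, and their mitochondrial shares were 2.37% to 5.56%. Lyz1 and Lyz2 UMIs in the 5 highest were 496 and 174, 289 and 411, 226 and 283, 103 and 280, and 87 and 473. In the barcodes with under 10 Lyz1 UMIs, by contrast, there were 4.76 Lyz1 UMIs per 10000 Lyz2 UMIs (4.13 to 5.46) with normal FBs and 2.68 (2.16 to 3.29) with fibrogenic FBs, and how many of these Lyz1 UMIs were misread from Lyz2 transcripts was not tested. The high barcodes also held the other members unevenly: Cd177 was at 35 UMIs in the barcode with 86 Lyz1 UMIs and at 0 in 5 of the 11, and in the 2 high barcodes with fibrogenic FBs Phgr1 and Cd177 were at 0.

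The other 3 genes were spread over many barcodes. The 5 highest barcodes with normal FBs held 6.45% of Ptprn2, 6.40% of Phgr1 and 6.94% of Cd177 UMIs, and with fibrogenic FBs 10.7%, 17.4% and 20.5%. Without those barcodes the log2 ratios were -1.77, -1.76 and -1.60, farther from 0 than with them. Barcodes with 10 or more UMIs numbered 79 and 10 for Ptprn2, 236 and 44 for Phgr1, and 164 and 45 for Cd177. For Lyz2 they numbered 1013 and 709.

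**Figure D4:**
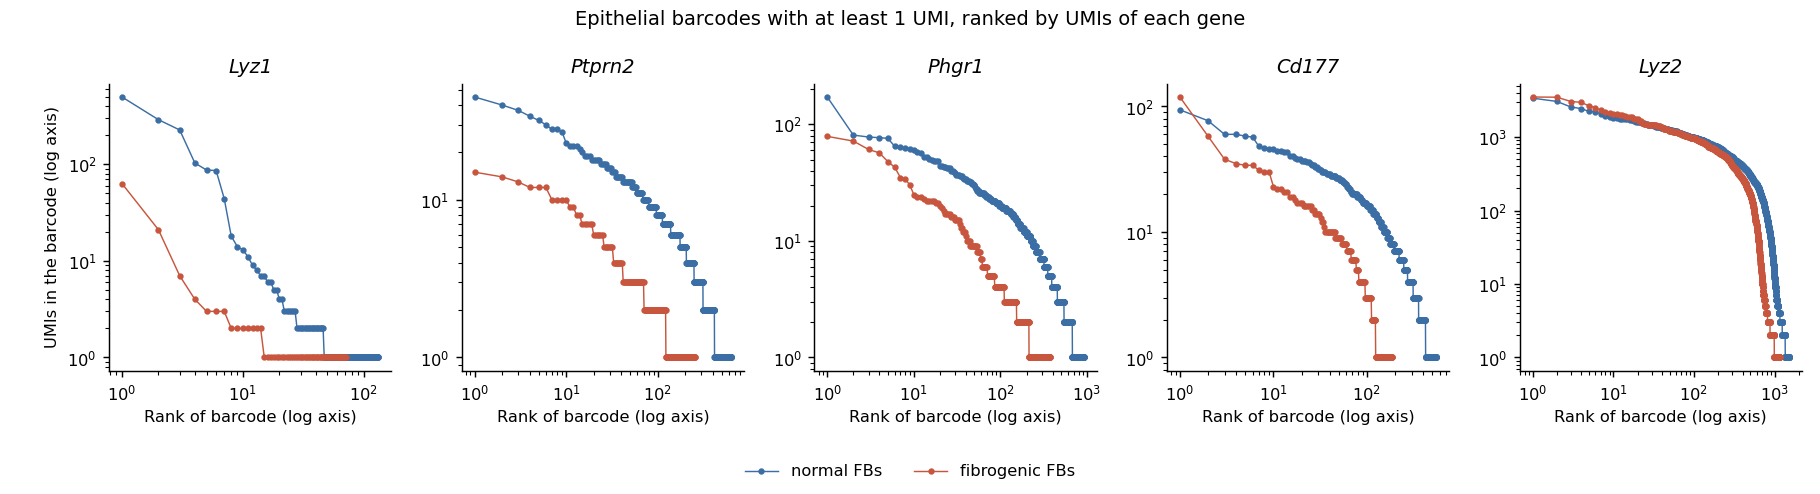
UMIs of each member in every epithelial barcode with at least 1 UMI, ranked from the highest (both axes log), for normal FBs in blue and fibrogenic FBs in red. The Lyz1 curve with normal FBs drops from 496 UMIs at rank 1 to 11 at rank 11, the Ptprn2, Phgr1 and Cd177 curves lie apart over most of their length, and the Lyz2 curves nearly coincide over the highest barcodes.

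Barcodes positive for 1 of the 3 spread genes were more often positive for another, which is a description of barcodes that share a library and, after thinning, a depth of 10000 UMIs. With normal FBs, Phgr1 was positive in 48.6% of Ptprn2-positive and 28.5% of Ptprn2-negative barcodes, and Cd177 in 34.8% and 18.0%. With fibrogenic FBs the same shares were 28.9% and 11.8% for Phgr1 and 21.7% and 7.17% for Cd177. These shares pool all ranges. With normal FBs, 270 of the 319 Ptprn2-positive barcodes were AEC2-high, a range where Phgr1 was positive in 39.9% and Cd177 in 30.2%. The part of the ranges in the joint shares was not tested. None of the first 4 genes was seen in 48.2% of barcodes with normal FBs and 76.5% with fibrogenic FBs, and 3 or more of them in 65 and 9 barcodes. Pearson correlation with the AEC2 score over the 1627 normal barcodes was 0.26 for Ptprn2, 0.25 for Phgr1, 0.29 for Cd177 and 0.67 for Lyz2.

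The genes whose level over the 1627 normal barcodes was most like each member's were sought among 12347 genes by Pearson correlation of log2(counts per 10000 + 1). For Cd177 they were Hdc, the histamine-making enzyme (0.44), Cd38 (0.43), Dmkn (0.42), the antibacterial protein gene Pglyrp1 (0.42) and Bcl2a1b (0.41). For Phgr1 they were Pglyrp1 (0.43), the glycolytic genes Ldha (0.40) and Gapdh (0.36), Tmem213 (0.39) and Sec61g (0.38). For Ptprn2 they were Gpc6 (0.44), Dock4 (0.42), the fatty acid transporter gene Cd36 (0.42), Pik3c2g (0.40) and Acoxl (0.40). All ranges were pooled for these correlations, and the part of the ranges in them was not tested.

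Of these like genes, Hdc was at 197.3 and 93.2 CPM (-1.07), Dmkn at 113.4 and 49.9 CPM (-1.17) and Pglyrp1 at 147.0 and 68.3 CPM (-1.10), which puts them at ranks 12, 7 and 10 from the lowest ratio. Acoxl had a log2 ratio of -1.01, Tmem213 of -0.93, Cd36 of -0.59, Dock4 of -0.46, Gpc6 of -0.38 and Sec61g of -0.15. Over the fibrogenic barcodes the same pairs correlated at 0.27 to 0.43.

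The 5 genes most like Lyz2 were Chil1 (0.71), Cxcl15 (0.69), Lcn2 (0.68), Lamp3 (0.66) and Elovl1 (0.66), whose log2 ratios were 0.01, -0.69, -0.21, -0.21 and -0.37. The most like gene to Lyz1 was Cyp2c40, at 0.20, and the next 4 were Acoxl, Gstp3, Csf2rb and Atp6v1g3, at 0.13 to 0.14, which is weak in counts this sparse.

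Genes with related roles were read beside the members in 7 lists. Of their genes, 0 were at a log2 ratio of -1 or lower, where 0.129% of all genes were, so the count does not set the lists apart. Of 20 AEC2 secretory and surfactant genes, 14 were below 0, where 38.1% of all genes were, with a median of -0.20 against 0.05 for all genes. They ran from Sftpa1, a surfactant protein gene, at 1846 and 1005 CPM (-0.88), to Hc, complement C5, at 170.9 and 211.8 CPM (0.31). Sftpc was at -0.16.

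Of 15 lysosome genes, 3 were below 0, where 38.1% of all genes were, and the median was 0.14 against 0.05 for all genes, from Npc2 (-0.12) to Ctsl (0.53). Of 20 genes of secreted defence, 9 reached 50 UMIs, with a median of 0.05, from the protease inhibitor gene Slpi at 281.6 and 218.5 CPM (-0.36) to Bpifa1 at 0.128 and 1.44 CPM (1.11), the 1 gene of the 7 lists at 1 or higher.

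The lists named for where the members are best known were mostly under the minimum of 50 UMIs. Of 12 Paneth cell genes, 11 were in the tables and 2 reached 50 UMIs, Sox9 (0.47) and Dll4 (0.28). Of 18 dense-core vesicle and neuroendocrine genes, 5 did, and 0 of them were below 0, where 38.1% of all genes were. Their median was 0.11, from Vamp2 (0.07) to the peptide-trimming enzyme gene Cpe (0.85). Ptprn, the paralog of Ptprn2, was at 5.72 and 9.42 CPM (0.63), the opposite direction to Ptprn2. Of 20 intestinal epithelial genes, 8 did, with a median of 0.16, from Tspan8 at 341.6 and 287.9 CPM (-0.25) to Lgals4 (0.36).

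Of 14 neutrophil genes, 3 reached 50 UMIs, from Retnlg (-0.83) to Prtn3 (0.07), with a median of 0.05. The 6 neutrophil markers together held 4.35 and 2.20 CPM, lower with fibrogenic FBs as Cd177 was, but nearly all of these UMIs were Retnlg (331 and 113), while S100a9 was at 0 in both libraries and S100a8 at 3 and 5 UMIs. Barcodes gated as immune numbered 4 and 10 in the organoids and held 0 Cd177 UMIs in both libraries. Their Lyz2 was at 16523 and 22452 CPM, and they gave 1 and 3 Lyz1 UMIs.

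The lung libraries, which the choice of members did not use, held few epithelial barcodes because GFP+ cells had been sorted: 3 and 1 after a single dose of PBS and bleomycin, and 29 and 14 after repetitive PBS and bleomycin, with at least 1000 UMIs each. After repetitive PBS the 29 barcodes held 405 Lyz1 UMIs, all in 5 barcodes, of which the highest held 239, 127 and 34. Lyz1 was thus concentrated in few barcodes there too. Lyz2 gave 11432 UMIs in 25 of the 29. Ptprn2 gave 0 UMIs and Phgr1 and Cd177 gave 1 each, out of 547410 UMIs in all, where a count of 0 allows up to 5.48 CPM.

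After repetitive bleomycin the 14 epithelial barcodes held 1 Lyz1 UMI, 1 Ptprn2 UMI, 6 Phgr1 UMIs and 34 Cd177 UMIs, the last 2 each in 1 barcode, out of 489570 UMIs. Lyz2 gave 3352 UMIs in 10 of the 14. With so few barcodes, which were left over from a sort for other cells, these libraries are set side by side without a comparison.

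Ptprn2 was also found in lung FBs. After repetitive PBS it gave 478 UMIs in 4985 FB barcodes (8.43 CPM, 7.42% positive) and after repetitive bleomycin 269 UMIs in 7308 (4.48 CPM, 3.04% positive), at median depths of 10848 and 4380 UMIs. Lyz1 (8 and 58 UMIs), Phgr1 (1 and 1) and Cd177 (1 and 0) were at most 0.967 CPM in the same barcodes. In the single-dose libraries Ptprn2 gave 2 and 1 UMIs in 767 and 792 FB barcodes (0.360 and 0.097 CPM). Dose number and the set of counted genes differed together between the single-dose and repetitive-dose libraries. Immune barcodes with at least 3 macrophage markers (4 to 41 per library) held 9926 to 26262 CPM of Lyz2 across the 4 lung libraries and 0 Ptprn2, Phgr1 and Cd177 UMIs. Among all immune barcodes, Cd177 gave 14 UMIs in 7 of 100 barcodes after repetitive PBS (18.0 CPM), of which 2 UMIs lay in the 31 barcodes with at least 3 neutrophil markers, and 7 UMIs in 5 of 113 after repetitive bleomycin (5.46 CPM), with 0 in the 17 such barcodes. After the single doses it gave 0 UMIs in 16 and 21 immune barcodes.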

How the data were processed

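The authors aligned and counted reads with Cell Ranger (version 3.0.1 in the submitters' processing notes, which also name Seurat 3 and mm10) and deposited counts of UMIs per gene and barcode, without normalization, for 6 libraries of 7201081 to 238618743 UMIs. The paper names GRCm38 and Gencode M17 without listing libraries; the tables hold 32285 genes for the organoid and repetitive-dose libraries and 30830 and 30828 for the single-dose ones. Organoid barcodes needed 10000 UMIs, 4 of 8 epithelial markers and 5 times as many epithelial as fibroblast, immune or endothelial marker UMIs, at most 0.5% hemoglobin, and mitochondrial shares within 3 scaled median absolute deviations of the median and 25%. Summed UMIs were scaled to CPM per library, and 1 CPM was added to each level before the log2 ratio. Intervals (95%) were exact Poisson or Clopper-Pearson and cover counting error only; zeros were bounded at 3 counts per library. No test between conditions was possible with 1 library each. Doublets were kept; Scrublet marked 0.132% and 1.44% of barcodes. The gate and ratios were tested on simulated data, with barcodes drawn from the summed profiles of gated barcodes. Named genes were the members, each list's extremes and paralogs, the 5 genes most like each member, and their neighbours in rank; beyond that rule, Sftpc, Krt19, Ager, S100a8, S100a9, Ptprc and Marco were named for the cells they mark. The members and lists were chosen with earlier results of these data known. Python 3.11.15, numpy 2.4.6, scipy 1.17.1 and scanpy 1.11.5 were used.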

Additional observations from a re-analysis of the deposited data

How the results depend on the processing

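Over 12 alternatives the log2 ratios of fibrogenic to normal ran from -2.86 to -1.36 for Lyz1, -1.87 to -1.47 for Ptprn2, -1.85 to -1.36 for Phgr1, -1.67 to -1.11 for Cd177 and -0.11 to 0.32 for Lyz2, so that the first 4 were at -1 or lower in all 12. In the barcodes with under 10 Lyz1 UMIs, which is not among the 12, Lyz1 was at -0.49. Of these 12, weighting by range, leaving out the 5 highest barcodes and averaging CPM over barcodes were chosen after seeing the data. Leaving out the highest barcode of each library within each range or FB barcodes, also chosen after seeing the data, gave 27 values, of which 10 lay outside the counting interval of the reported value, 3 changed sign and 4 crossed -1. Lyz1 in FB barcodes changed sign (0.27 to -0.13), as did Lyz1 in cycling and Cd177 in intermediate barcodes. Those that crossed -1 were Lyz1 in cycling barcodes (-3.66 to 0.12), Ptprn2 in AEC1-high (-0.91 to -1.09), Phgr1 in PATS-high (-0.38 to -1.26) and Cd177 in intermediate ones (0.62 to -1.19). The causes of the shifts were not tested. No paired analysis was possible because each condition had 1 library. Depth limits Lyz1 in AEC1-high, PATS-high and intermediate barcodes, and Ptprn2, Phgr1 and Cd177 in the single-dose lung epithelium (3 and 1 barcodes). After repetitive PBS, 29 epithelial barcodes held 0 Ptprn2 UMIs, which allows up to 5.48 CPM, against 37.4 and 10.7 CPM in the organoids. Phgr1 and Cd177 gave 1 UMI each there. Those barcodes were few and left over from a sort, and the difference from the organoids was not tested.

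Ratios outside the counting interval of the reported value were, with epithelial marker UMIs at least 20 times the others (1442 and 861 barcodes), -2.86 for Lyz1, -1.85 for Ptprn2, -1.85 for Phgr1, -1.59 for Cd177 and -0.11 for Lyz2. Thinned to 10000 UMIs they were -1.68 for Lyz1, -1.87 for Ptprn2, -1.67 for Cd177 and 0.13 for Lyz2. Without the 5 highest barcodes they were -1.36 for Lyz1, -1.76 for Phgr1, -1.60 for Cd177 and 0.085 for Lyz2. Weighted as in the normal library they were -1.47 for Ptprn2, -1.36 for Phgr1, -1.11 for Cd177 and 0.32 for Lyz2, and as means of each barcode's CPM -1.88 for Lyz1, -1.56 for Cd177 and 0.12 for Lyz2. A pseudocount of 0.1 CPM gave -2.71 for Lyz1. Lyz2 was at 0.10 (0.0958) with a minimum of 1000 UMIs, 0.14 in Leiden clusters and 0.058 centred on the median gene.

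Genes at 1 or higher numbered 32 among those with at least 500 UMIs and 222 with a pseudocount of 0.1 CPM, which also gave 42 at -1 or lower and put Lyz1, Ptprn2, Phgr1 and Cd177 at ranks 2, 6, 7 and 10. Positive shares with normal and fibrogenic FBs after thinning were 2.89% and 1.59% for Lyz1, 19.6% and 6.61% for Ptprn2, 32.5% and 12.9% for Phgr1, 21.3% and 8.13% for Cd177, and 77.3% and 72.6% for Lyz2. With at least 2 UMIs they were 2.83% and 1.12% for Lyz1, 25.6% and 9.72% for Ptprn2, 41.5% and 16.97% for Phgr1, 25.9% and 9.80% for Cd177, and 82.9% and 78.6% for Lyz2.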
